A study of Mus musculus with 8 samples.

Results

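The genes described here are those of glycogen synthesis and breakdown in the inguinal fat pad, with the glycogen-binding receptor gene Stbd1. They were 9 genes named by symbol, Stbd1, Gyg, Gys1, Gys2, Gbe1, Pygl, Pygm, Pygb and Ppp1r3c, out of 23360 genes in the deposited tables. Each symbol was found under 1 RefSeq accession, and all 9 passed the filter on low values. They were chosen as a pathway with their values in this comparison already known. Fold changes and adjusted p-values of these 9 genes are therefore a description of where they lie in the fit over all genes.

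Inguinal white adipose tissue, the subcutaneous fat of the groin, was taken from mice 6 weeks old and profiled by RNA sequencing. The Lsd1 KO mice carried floxed Lsd1 alleles and Adipoq-Cre, a transgene that is active in adipocytes, so other cells of the pad keep the gene. The control mice carried the floxed Lsd1 alleles, and since no mice had Adipoq-Cre alone, effects of the transgene and of Lsd1 loss cannot be told apart. There were 4 libraries in each group. The sources used here give neither strain and sex nor whether each library came from its own mouse, so p-values cover only the spread among these libraries, which could be technical. The sample titles carry numbers, 518 and 517 for control replicates 1 and 2 but 356 to 361 for the remaining 6. The labels do not say whether this marks a batch, and no Lsd1 KO library has a number near 518.

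Glycogen is a branched glucose store that is abundant in liver and muscle and is kept in small amounts in adipocytes. Glycogenin starts a chain on itself, glycogen synthase extends it, and the branching enzyme adds branch points. Glycogen phosphorylase releases glucose 1-phosphate from the chain ends. Phosphatase and kinase complexes switch synthase and phosphorylase in opposite directions. Stbd1 is a membrane protein with a starch-binding domain that binds glycogen and is known as a cargo receptor for its delivery to lysosomes. It is best known from muscle and liver.

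Whole reads could be recovered from the deposited scaled values, and they numbered 25671837 to 32442724 per library. Kdm1a, which encodes Lsd1, averaged 568 ± 15.4 scaled reads in Lsd1 KO and 729 ± 51.1 in control libraries (SD, n = 4 each; log2 fold change -0.36, standard error 0.075, limma adjusted p = 0.0498). All 20 adipocyte markers were present in every library, with a summed level of 783617 to 1077571 scaled reads in Lsd1 KO and 971089 to 1248587 in control libraries. Their mean log2 level was 14.16 to 14.40 in Lsd1 KO and 14.42 to 14.71 in control libraries, with no overlap and a median log2 fold change of -0.26, and 1 of the 20 passed the test. The 10 endothelial markers also did not overlap, with a summed level of 14061 to 16729 scaled reads in Lsd1 KO and 16765 to 19091 in control libraries and a median log2 fold change of -0.17, and none of them passed. The part of these lower marker levels in the results was not tested. Skeletal muscle markers, 23 genes of which none was at 0 in any library, differed between libraries more widely. Their summed level was 233805, 220869, 15459 and 134914 scaled reads in Lsd1 KO replicates 1 to 4, against 29760, 34158, 45232 and 10606 in control replicates 1 to 4. Lsd1 KO replicates 1, 2 and 4 were thus far above every control, and Lsd1 KO replicate 3 lay within the control range. Of the muscle markers 22 were tested, with a median log2 fold change of 1.96, and none passed. Mammary epithelium markers summed to 190 to 726 in Lsd1 KO and 144 to 217 in control libraries, and B cell markers to 13329 to 18105 in Lsd1 KO and 8453 to 18248 in control libraries.

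The promoters of Stbd1 and Pygm are shown because the results turn on these genes, the member that passed the test and the member that followed the muscle markers. Both run 5′ to 3′ from 250 bases before to 50 bases after the annotated start, from RefSeq on GRCm38.p6, the base assembly of mm10. The Stbd1 window is chr5:92602801-92603100 on the plus strand, and its capitals mark the GC box GGGCGG, searched on both strands with overlapping matches counted. The Pygm window is chr19:6384158-6384457 on the plus strand, and its capitals mark the E-box CANNTG, which reads the same on both strands.
Stbd1: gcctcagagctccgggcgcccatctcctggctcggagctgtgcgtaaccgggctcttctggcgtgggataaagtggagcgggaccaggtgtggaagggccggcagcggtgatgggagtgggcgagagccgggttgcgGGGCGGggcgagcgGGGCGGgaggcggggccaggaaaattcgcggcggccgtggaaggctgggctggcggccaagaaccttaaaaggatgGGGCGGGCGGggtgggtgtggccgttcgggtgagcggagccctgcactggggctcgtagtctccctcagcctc
Pygm: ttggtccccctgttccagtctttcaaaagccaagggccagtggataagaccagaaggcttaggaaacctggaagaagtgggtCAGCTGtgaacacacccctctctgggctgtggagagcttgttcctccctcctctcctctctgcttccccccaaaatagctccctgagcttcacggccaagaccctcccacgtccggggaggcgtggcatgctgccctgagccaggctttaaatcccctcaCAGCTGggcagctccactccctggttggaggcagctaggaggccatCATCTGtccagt

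The Stbd1 window held 4 GC boxes, 28 CpG dinucleotides, 1 E-box and 70.7% G or C, while the Pygm window held no GC box, 4 CpG dinucleotides and 3 E-boxes. Of 32851 promoter windows of this length, 35.7% held a GC box and 5.49% held at least 4, and 72.3% held an E-box and 17.6% held at least 3. Promoter windows were found for 8 of the 9 members, and among these Pygl also held 4 GC boxes and Gys1 held 3. The CCAAT box, searched as CCAAT on both strands, was present in the Gys1 window 4 times and in the Ppp1r3c window 2 times, and in 37.4% of all windows. The TATA box, searched as TATAAA on both strands, was in none of the 8 windows and in 13.6% of all windows. These matches describe the letters and not the binding of any factor.

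Stbd1 (NM_175096, chr5:92603051-92606579) was the member that differed between the genotypes. Its scaled read counts were 395, 377, 349 and 320 in Lsd1 KO replicates 1 to 4, against 58.6, 90.4, 91.1 and 95.4 in control replicates 1 to 4. Every Lsd1 KO library lay above every control, and the lowest Lsd1 KO value was more than 3 times the highest control value. The mean was 360 ± 32.7 in Lsd1 KO and 83.9 ± 17.0 in control libraries (SD, n = 4 each), a 4.29-fold higher level. The log2 fold change was 2.11 (standard error 0.16, 95% confidence interval 1.75 to 2.47, limma adjusted p = 0.000327). These values rest on 641 to 789 recovered reads per Lsd1 KO library and 120 to 186 per control library. Since the pad was measured in bulk, more cells that express a gene and more RNA per cell cannot be told apart.

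**Figure D1:**
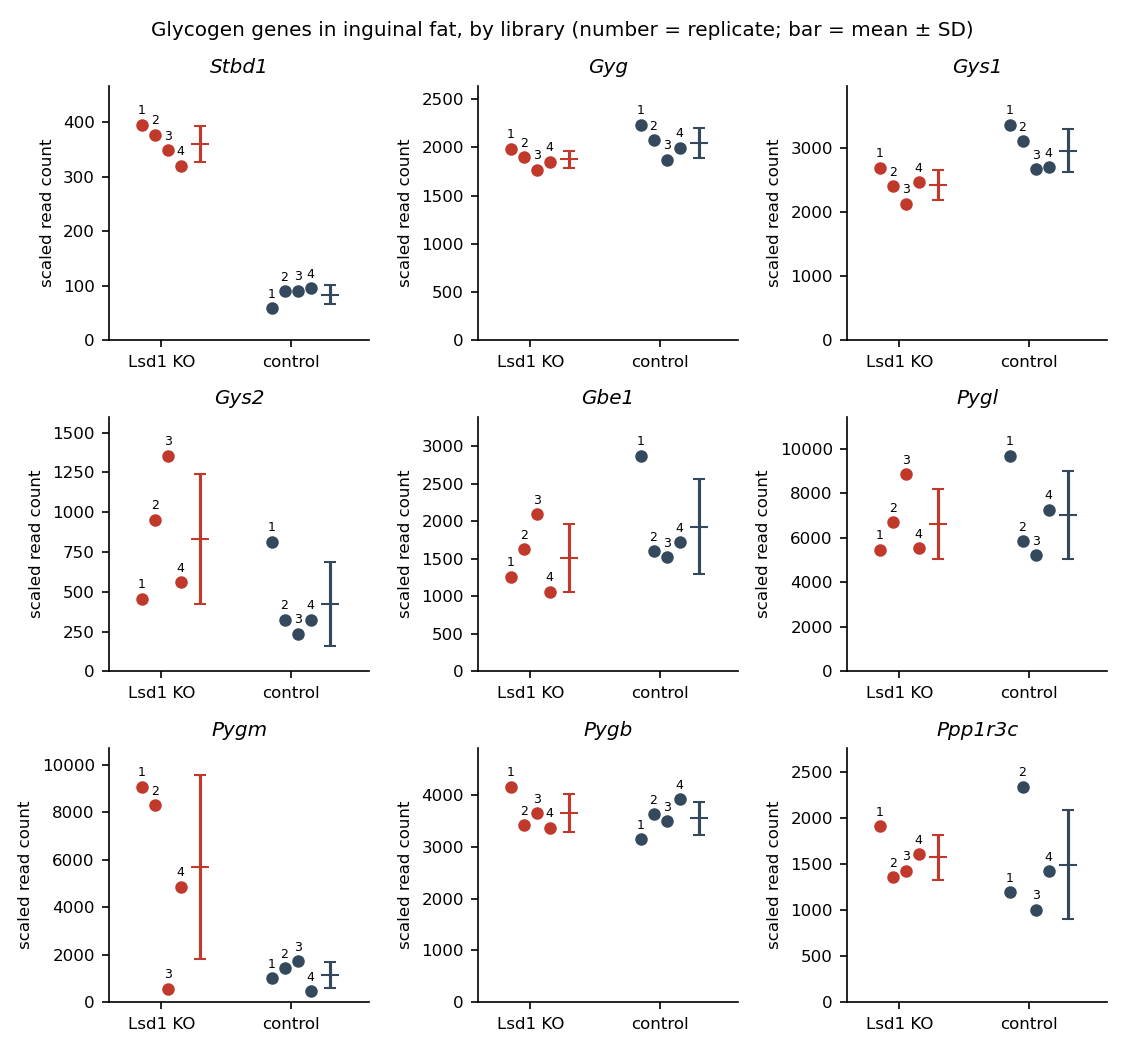
Scaled read counts of the 9 glycogen genes in each library, on axes that start at 0, with Lsd1 KO libraries at the left and control libraries at the right of each panel. Points are libraries numbered by replicate and bars are the mean ± SD (n = 4). Stbd1 shows no overlap between groups, at 320 to 395 in Lsd1 KO and 58.6 to 95.4 in control libraries, and the other 8 genes overlap.

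Stbd1 was as high in the Lsd1 KO library with few muscle reads as in the other Lsd1 KO libraries. Lsd1 KO replicate 3, whose muscle marker sum lay within the control range, had 349 scaled reads of Stbd1, against 320 to 395 in the other Lsd1 KO libraries. Set against the 4 controls, Lsd1 KO replicate 3 alone gave a log2 fold change of 2.07 (limma adjusted p = 0.0735). In that fit, 17 of 14178 genes (0.12%) passed, and the lone library was assumed to vary like the controls. With the muscle score, the mean log2 value of the 23 muscle markers, as a covariate the log2 fold change was 2.11 (adjusted p = 0.00371). As a share of the summed muscle markers, Stbd1 ran from 0.169% to 2.26% over the 8 libraries. The call held without any 1 library, with log2 fold changes of 1.95 to 2.18, and without control replicates 1 and 2 together, whose title numbers lie apart (1.93, adjusted p = 0.00163).

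Of the 9 members, Stbd1 alone passed the adjusted threshold, and 239 of the 14591 genes tested (1.64%) did so. The higher direction held 187 of these (1.28%). Groups that did not overlap, with Lsd1 KO above control, were seen for the same member and for 739 of all genes (5.06%). At an unadjusted p under 0.05 there were 4 members, Stbd1, Gys1, Gys2 and Pygm, beside 14.5% of all genes. The median log2 fold change was 0.040 over the members and 0.023 over all genes tested. The log2 fold change lay within 0.2 of 0 for 4 members.

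Of genes that flank Stbd1 on chromosome 5, chosen by position alone, the nearest that were tested did not pass. Shroom3, an actin-binding protein gene whose span begins 76856 bases after the end of Stbd1, averaged 49.8 ± 11.1 scaled reads in Lsd1 KO and 40.2 ± 6.68 in control libraries (limma adjusted p = 0.543). Scarb2, a lysosomal membrane receptor gene that ends 97394 bases before Stbd1, averaged 1145 ± 197 in Lsd1 KO and 1145 ± 82.1 in control libraries (adjusted p = 0.975). Next outward, the log2 fold change was -0.036 for Nup54 (adjusted p = 0.908) and 0.17 for Septin11 (0.510). No annotated gene overlaps the span of Stbd1 on either strand in GENCODE M21. Reads that run on from a neighbour beyond its annotated end were not examined.

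Among all genes tested, those with a profile most like that of Stbd1 over the 8 libraries were Zfp949, Efna3 and Prrt1. Likeness was the root mean square difference of log2 values, each centred on its gene's mean, and it was 0.19 for Zfp949, a zinc finger gene, and 0.25 for both Efna3, which encodes an ephrin, and Prrt1. Zfp949 had 714 to 845 scaled reads in Lsd1 KO and 176 to 241 in control libraries. The same measure between Stbd1 and the other members was 0.97 to 1.34, with Gys2 closest and Gbe1 farthest. The likeness holds the genotype difference itself, and Stbd1 was chosen with that difference known.

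None of the 4 genes that build glycogen passed the test. Gyg (NM_013755, chr3:20122083-20155117), which encodes glycogenin, had 1986, 1897, 1769 and 1850 scaled reads in Lsd1 KO replicates 1 to 4, against 2234, 2077, 1873 and 1995 in control replicates 1 to 4. The groups overlapped and each library lay within a narrow range (log2 fold change -0.12, standard error 0.076, limma adjusted p = 0.508). The 95% confidence interval of the log2 fold change was -0.29 to 0.047.

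Gys1 (NM_030678, chr7:45434839-45456617), the glycogen synthase of muscle and most other tissues, had 2699, 2414, 2139 and 2473 scaled reads in Lsd1 KO replicates 1 to 4. Control replicates 1 to 4 had 3369, 3112, 2672 and 2709. The Lsd1 KO values lay at the lower end and the highest of them, 2699, was above the lowest control (log2 fold change -0.28, standard error 0.10, 95% confidence interval -0.51 to -0.057, limma adjusted p = 0.240). Exons of Gys1 share 310 bases with exons of Ruvbl2 on the opposite strand, and reads there cannot be told apart without strand.

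Gys2 (NM_145572, chr6:142422612-142473130), the synthase best known from liver, was the most variable of the synthesis genes. Its scaled read counts were 456, 953, 1354 and 562 in Lsd1 KO replicates 1 to 4, against 814, 324, 236 and 324 in control replicates 1 to 4. The groups overlapped because control replicate 1 stood above Lsd1 KO replicates 1 and 4. The mean was 831 ± 409 in Lsd1 KO and 425 ± 263 in control libraries (log2 fold change 1.01, standard error 0.42, 95% confidence interval 0.076 to 1.94, limma adjusted p = 0.309). In the 24 alternatives tried the log2 fold change ran from 0.73 to 1.84 and none passed. Its highest value came from Lsd1 KO replicate 3, the Lsd1 KO library with the lowest muscle markers. Brown adipocyte markers summed to 10003, 14562, 20636 and 10646 scaled reads in Lsd1 KO replicates 1 to 4, against 16160, 17109, 6984 and 9181 in control replicates 1 to 4. By this sum the Lsd1 KO libraries had the same order for Gys2 and for these markers, while the controls did not. The mean log2 level of the markers was 8.76, 9.36, 9.96 and 8.67 in Lsd1 KO replicates 1 to 4. In control replicates 1 to 4 it was 9.56, 9.52, 8.29 and 8.69. By that measure Lsd1 KO replicates 1 and 4 changed places, and the control order no longer departed from that of Gys2. The part of these markers in the Gys2 values was not tested.

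Gbe1 (NM_028803, chr16:70313949-70569720), the branching enzyme, had 1261, 1629, 2096 and 1060 scaled reads in Lsd1 KO replicates 1 to 4, against 2872, 1602, 1525 and 1723 in control replicates 1 to 4. Control replicate 1 stood apart above all others, and the remaining values of the groups intermingled (log2 fold change -0.35, standard error 0.24, limma adjusted p = 0.553). The direction was not settled, as Lsd1 KO replicate 3 alone against the controls gave 0.17. Lsd1 KO replicate 3 and control replicate 1 were each the highest of their group in Gbe1, in Gys2 and in Pygl.

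The synthase makeup was compared per length, as scaled reads per kilobase of transcript. Gys2 made up 19.0, 35.3, 46.7 and 23.9% of the summed synthase level in Lsd1 KO replicates 1 to 4, against 25.1, 12.6, 10.9 and 14.2% in control replicates 1 to 4. Gys1 was the larger part in all 8 libraries. The groups overlapped through control replicate 1, whose Gys2 share was above that of Lsd1 KO replicates 1 and 4. The longest run of identical bases between the Gys1 and Gys2 transcripts was 29 bases.

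The phosphorylase genes that release glucose from glycogen differed in behaviour from each other. Pygl (NM_133198, chr12:70190815-70227683), the phosphorylase best known from liver, had 5468, 6681, 8839 and 5540 scaled reads in Lsd1 KO replicates 1 to 4, against 9673, 5847, 5226 and 7253 in control replicates 1 to 4. The groups covered the same range (log2 fold change -0.065, standard error 0.21, 95% confidence interval -0.53 to 0.40, limma adjusted p = 0.919), and 7 of 24 alternatives gave the opposite sign. Pygb (NM_153781, chr2:150786796-150831748), the phosphorylase named for brain, was the steadiest, with 3361 to 4150 scaled reads in Lsd1 KO and 3136 to 3911 in control libraries. Its log2 fold change was 0.040 (standard error 0.10, 95% confidence interval -0.18 to 0.25, adjusted p = 0.891), and 4 of 24 alternatives gave the opposite sign.

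Pygm (NM_011224, chr19:6384408-6398464), the phosphorylase of skeletal muscle, spread most widely of all members. Its scaled read counts were 9070, 8299, 572 and 4860 in Lsd1 KO replicates 1 to 4, against 1024, 1441, 1732 and 472 in control replicates 1 to 4. Lsd1 KO replicates 1, 2 and 4 were above every control, and Lsd1 KO replicate 3 was below 3 of the 4 controls. The mean was 5700 ± 3878 in Lsd1 KO and 1167 ± 547 in control libraries (SD, n = 4 each), with a log2 fold change of 1.86 (standard error 0.80, 95% confidence interval 0.068 to 3.65, limma adjusted p = 0.328). Without Lsd1 KO replicate 3 Pygm passed (log2 fold change 2.77, adjusted p = 0.0104), as did 429 genes in all (2.96%).

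The Pygm values moved with the skeletal muscle markers in both genotypes, and ordering the 8 libraries by either gave the same order. Pygm amounted to 3.88, 3.76, 3.70 and 3.60% of the summed muscle marker level in Lsd1 KO replicates 1 to 4, against 3.44, 4.22, 3.83 and 4.45% in control replicates 1 to 4. This share differed by a factor of 1.29 between the lowest and the highest library, while Pygm itself differed 15.8-fold within the Lsd1 KO libraries and 3.67-fold within the controls. With the muscle score as a covariate the log2 fold change of Pygm was -0.22 (adjusted p = 0.569), and with Lsd1 KO replicate 3 alone against the controls it was -0.87 (0.509). The genes most like Pygm over the 8 libraries were all muscle markers of the list, Myoz1, Atp2a1 and Casq1, with root mean square differences of 0.11, 0.12 and 0.13. Atp2a1, the calcium pump of fast muscle fibres, had 31160, 27854, 2001 and 17534 scaled reads in Lsd1 KO replicates 1 to 4.

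**Figure D2:**
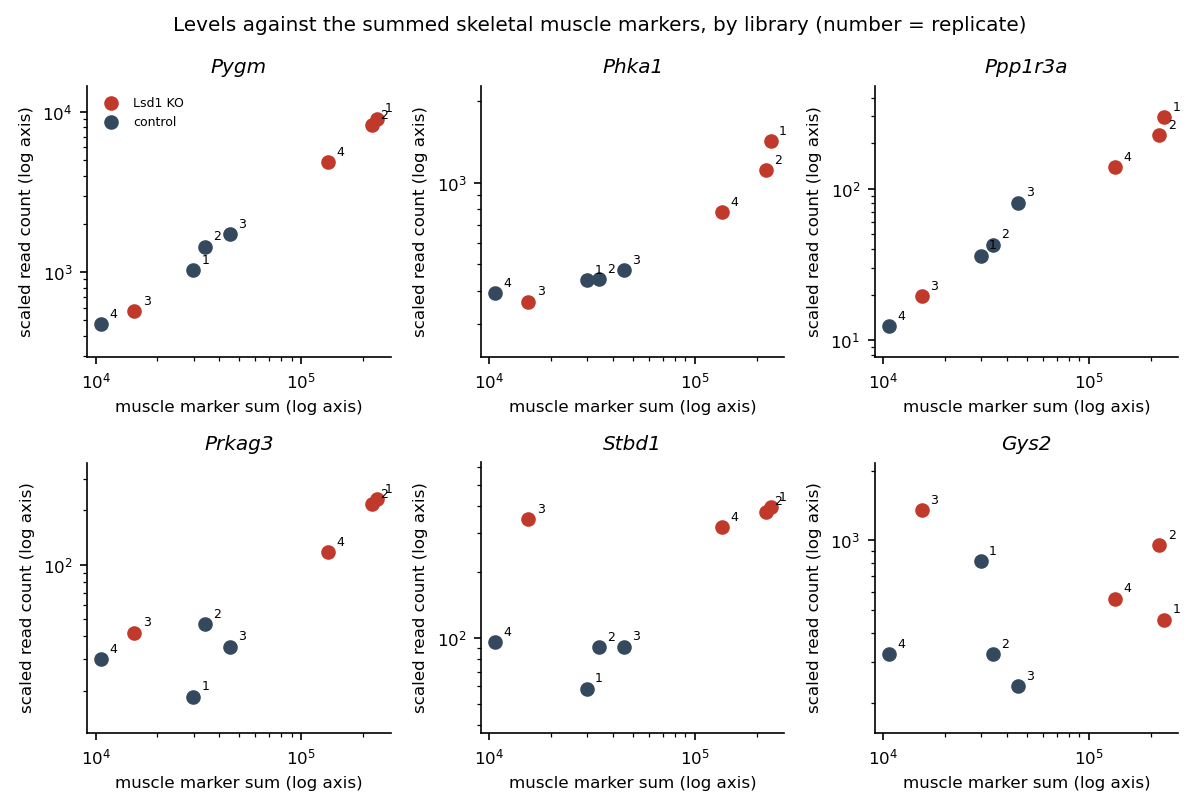
Scaled read counts of 6 genes against the summed level of 23 skeletal muscle markers, 1 point per library, both axes logarithmic, with numbers for replicates. The order of the 8 libraries is the same for Pygm, for Ppp1r3a and for the muscle markers, while Phka1 and Prkag3 are high only in Lsd1 KO replicates 1, 2 and 4. Stbd1 in Lsd1 KO replicate 3 lies at 349, beside 320 to 395 in the other Lsd1 KO libraries.

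Per length, Pygl had the highest mean of the members in both genotypes, at 2348 ± 557 scaled reads per kilobase in Lsd1 KO and 2478 ± 699 in control libraries. In the controls Gyg followed at 1204 ± 89.3, then Pygb at 906 ± 82.3, Gys1 at 806 ± 91.0, Gbe1 at 647 ± 212, Ppp1r3c at 547 ± 217, Pygm at 406 ± 190, Gys2 at 160 ± 99.0 and Stbd1 at 42.3 ± 8.57. The control ranges of neighbours overlapped from Pygb down to Gys2. Pygl lay apart from Gyg, Gyg from Pygb and Gys2 from Stbd1. In the Lsd1 KO libraries Stbd1 was still the lowest on average, at 181 ± 16.5 scaled reads per kilobase, but its range of 161 to 199 overlapped that of Gys2, 172 to 509. Pygm ranked second in Lsd1 KO libraries by its mean of 1983 ± 1349, with a range of 199 to 3156.

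The phosphorylase makeup per length differed widely among the Lsd1 KO libraries. Pygm was 51.3, 47.1, 4.68 and 37.5% of the summed phosphorylase level in Lsd1 KO replicates 1 to 4, against 7.78, 14.3, 18.0 and 4.40% in control replicates 1 to 4. Without Pygm, the sum of Pygl and Pygb was 2997, 3237, 4061 and 2821 scaled reads per kilobase in Lsd1 KO replicates 1 to 4, against 4226, 2997, 2743 and 3568 in control replicates 1 to 4, so that the groups overlapped. Transcripts of Pygm and Pygb share a run of 62 identical bases and the other phosphorylase pairs a run of 29, so reads of Pygm and Pygb over that stretch are uncertain.

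**Figure D3:**
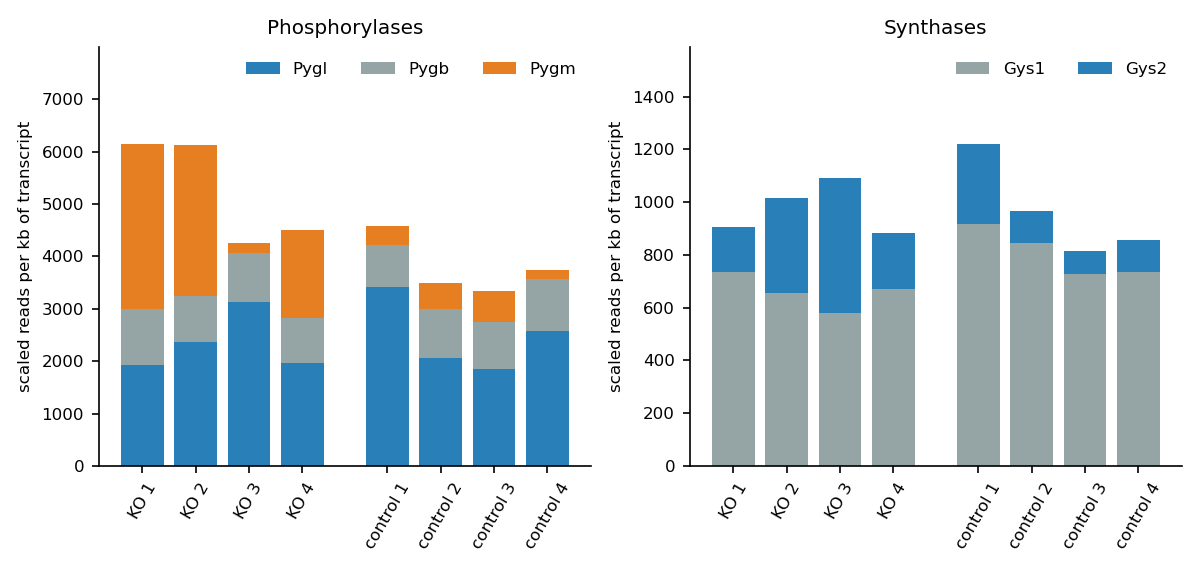
Stacked levels of the phosphorylase genes at the left and the synthase genes at the right, in scaled reads per kilobase of transcript, 1 bar per library with Lsd1 KO before control. Pygm fills 37.5 to 51.3% of the phosphorylase bar in Lsd1 KO replicates 1, 2 and 4 and 4.40 to 18.0% in the other 5 libraries, and Gys1 is the larger part of every synthase bar.

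Ppp1r3c (NM_016854, chr19:36731731-36736604) encodes a targeting subunit that brings protein phosphatase 1 to glycogen, which favours synthesis. Its scaled read counts were 1910, 1358, 1429 and 1609 in Lsd1 KO replicates 1 to 4, against 1198, 2340, 1005 and 1423 in control replicates 1 to 4. The control libraries spread 2.33-fold, on both sides of the Lsd1 KO libraries, which spread 1.41-fold (log2 fold change 0.14, standard error 0.23, limma adjusted p = 0.823). Its closest profiles over the 8 libraries were those of Hlf, a clock-controlled transcription factor (root mean square difference 0.14), and of Nr4a2, an inducible nuclear receptor, and 1810010H24Rik (0.16 each).

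Of the wider pathway, 40 more genes were listed by role, 38 were tested and none passed over all genes in limma or in edgeR's quasi-likelihood test, which called 1.49% of all genes. DESeq2 called 2, Phka1 and Prkag3, where it called 5.32% of all genes. At an unadjusted p under 0.05 there were 4 in limma, Phka1, Calm3, Prkag3 and Slc37a4, which is 4 of 38 genes, beside 14.5% of all genes. The median log2 fold change was 0.046 over the list and 0.023 over all genes tested, and 28 of the 38 lay within 0.2 of 0. Of the list, 3 genes had Lsd1 KO libraries all above the controls, namely Calm2, Calm3 and Slc37a4, and this was seen in 5.06% of all genes. Ppp1r3g and the glucose 6-phosphatase gene G6pc were below the filter, with at most 3.92 and 4.99 scaled reads in any library.

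The largest fold changes of the wider pathway belonged to genes known as muscle forms. These were high in Lsd1 KO replicates 1, 2 and 4, the libraries with the highest muscle markers. Prkag3, the AMP-activated kinase subunit of fast muscle, had 230, 216, 42.0 and 117 scaled reads in Lsd1 KO replicates 1 to 4 and 18.6 to 46.7 in the controls (log2 fold change 1.98, standard error 0.50, limma adjusted p = 0.102). Ppp1r3a, the phosphatase targeting subunit of muscle glycogen, had 298, 227, 19.5 and 139 in Lsd1 KO replicates 1 to 4 and 12.4 to 80.8 in the controls (1.69, standard error 0.81, adjusted p = 0.382). Phka1, the muscle form of the phosphorylase kinase alpha subunit, had 1425, 1115, 364 and 781 in Lsd1 KO replicates 1 to 4 and 391 to 477 in the controls (0.91, standard error 0.35, adjusted p = 0.268). In each of these genes Lsd1 KO replicates 1, 2 and 4 lay above every control and Lsd1 KO replicate 3 lay within or below the control range. Phkg1, the muscle form of the kinase's catalytic subunit, named after its values were seen, had the same layout, at 378 to 584 in Lsd1 KO replicates 1, 2 and 4, 127 in Lsd1 KO replicate 3 and 164 to 286 in the controls. These 4 genes passed when Lsd1 KO replicate 3, the Lsd1 KO library with few muscle reads, was left out, a fit in which 2.96% of all genes passed. As a share of the summed muscle markers, Ppp1r3a differed by a factor of 1.74 between the lowest and the highest library. That factor was larger for the others, at 4.52 for Prkag3, 7.31 for Phka1 and 6.74 for Phkg1. With the muscle score as a covariate the log2 fold change was 0.93 for Prkag3, -0.36 for Ppp1r3a and 0.094 for Phka1 (limma adjusted p 0.249 to 0.832). Their counterparts best known from liver, also named after their values were seen, lay closer to 0, with log2 fold changes of -0.24 for Phka2 and 0.12 for Phkg2 (limma adjusted p 0.394 and 0.660).

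**Figure D4:**
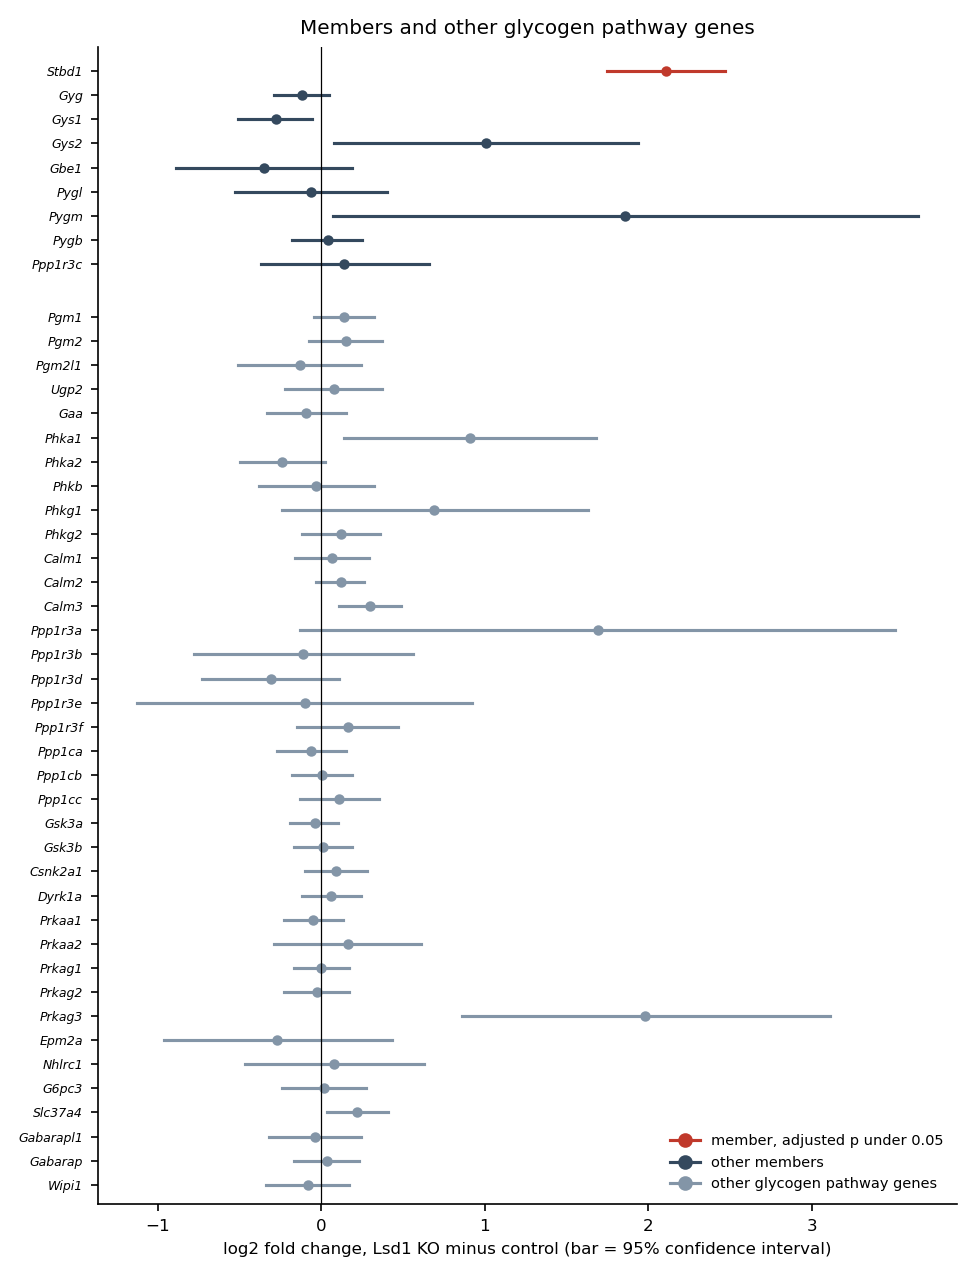
Log2 fold changes, Lsd1 KO minus control, of the 9 members and of 37 of the 38 tested genes of the wider pathway, with 95% confidence intervals as bars. The remaining gene is the item not reported here. Stbd1, at 2.11, is the single gene past the adjusted threshold, and the widest intervals belong to Pygm and Ppp1r3a.

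In the remaining roles no gene passed. Of the genes listed for glucose 1-phosphate and UDP-glucose supply, Pgm2, a phosphoglucomutase family gene, had the largest fold change. It averaged 205 ± 11.0 scaled reads in Lsd1 KO and 185 ± 13.7 in control libraries (limma adjusted p = 0.541). The more abundant Pgm1, named after its values were seen, averaged 4517 ± 358 in Lsd1 KO and 4106 ± 210 in control libraries (adjusted p = 0.492). Epm2a, which encodes the glycogen phosphatase laforin, averaged 36.1 ± 13.7 in Lsd1 KO and 41.3 ± 8.29 in control libraries (adjusted p = 0.744). Slc37a4, the glucose 6-phosphate transporter of the endoplasmic reticulum, had 515 to 603 in Lsd1 KO and 464 to 492 in control libraries (log2 fold change 0.22, standard error 0.083, adjusted p = 0.258).

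None of the 3 autophagy genes listed beside Stbd1 passed, nor did lysosomal Gaa. Gabarapl1, the autophagosome protein that binds Stbd1, averaged 2180 ± 334 scaled reads in Lsd1 KO and 2232 ± 278 in control libraries (log2 fold change -0.039, 95% confidence interval -0.32 to 0.24, limma adjusted p = 0.919). Its relative Gabarap averaged 4369 ± 493 in Lsd1 KO and 4257 ± 158 in control libraries (adjusted p = 0.907). Gaa, the lysosomal enzyme that digests glycogen, averaged 2455 ± 363 in Lsd1 KO and 2596 ± 125 in control libraries (log2 fold change -0.092, 95% confidence interval -0.33 to 0.15, adjusted p = 0.744). Wipi1, an early autophagy protein, had the largest difference of the 3 listed autophagy genes, at -0.084 on the log2 scale (adjusted p = 0.787).

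**Figure D5:**
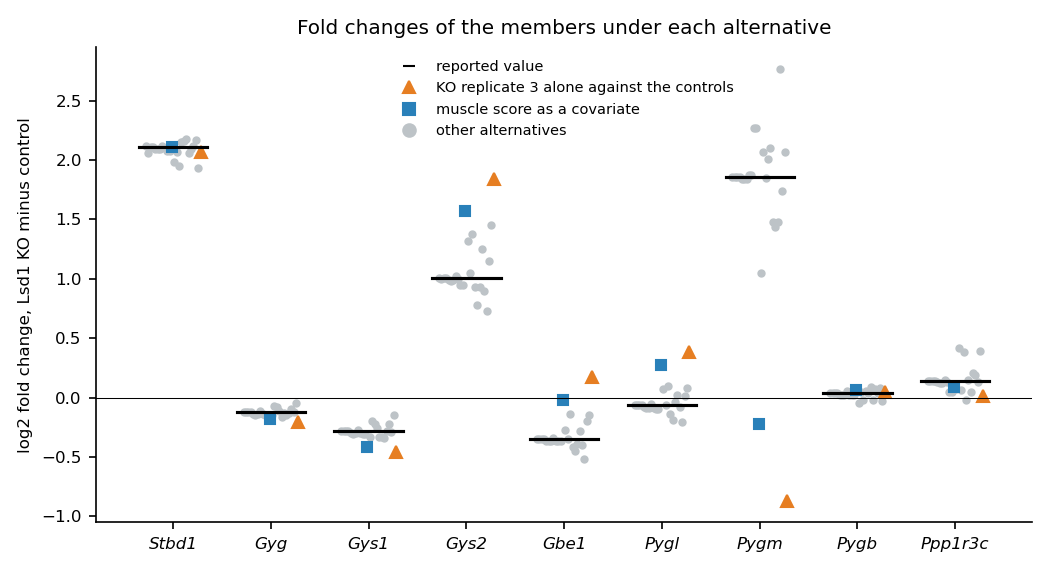
Log2 fold changes of the 9 members, Lsd1 KO minus control, as reported (black lines) and under 24 alternative settings (points). Stbd1 stays between 1.93 and 2.18, while Pygm runs from -0.87 with Lsd1 KO replicate 3 alone against the controls to 2.77 without that library.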

How the data were processed

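Reads were aligned with TopHat2 (version 2) to mm10 and counted with HOMER, per the submitters' processing notes and the design text. The processing notes also name edgeR, without a version. HOMER's version, annotation, strand setting and scaling: not given in the sources used here. The deposited values are a signal, read counts that the authors multiplied by 1 factor per library, since 99.99 to 100% of values above 0 were whole multiples of 1 step (0.442 to 0.545) within 0.02. If a step is 1 end of a read pair, true counting error exceeds that of the recovered reads. Of 23373 rows, 1 without an accession held 0 and was left out. Accessions were matched to symbols with RefSeq for GRCm38.p6 (22527) and GENCODE M21 (124), and 721 kept their accession. Of symbols with a second row, 12 rows with the lower total were dropped.

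limma (3.58.1, R 4.3.3) with a mean-variance trend was run on log2(value + 1), which understates changes of low genes, with genotype as the only term. It covered genes that reached a value of 10 in 4 or more libraries, with Benjamini-Hochberg adjustment at 0.05, and it was tested on simulated data. There, 13 of 169 calls were false. It recovered 40% of 1.5-fold, 78% of 2-fold, 94% of 4-fold and 100% of 8-fold changes, so smaller changes can be missed. Alternatives were other pseudocounts, filters and scalings, limma-voom, edgeR (4.0.16) and DESeq2 (1.42.0) on recovered reads, covariates and left-out libraries. Levels per kilobase used the GENCODE transcript matched to each accession. Named genes were the members, Kdm1a, pathway genes past the threshold, the largest fold change of each role, and the 3 closest profiles of 4 members. Further genes named after their values were seen are Calm2, Calm3, Ppp1r3g, G6pc, Phka2, Gaa, Gabarap, Gabarapl1 and those said so in the text. The members and lists were chosen with earlier results of these data known. An item that the naming rule covers is not reported here.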

Additional observations from a re-analysis of the deposited data

Results flagged for a closer look

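In 34 groups of 4 libraries (members and the largest fold change of each role), the distance of the highest or lowest library from its nearest neighbour was set against the whole range of its group, and 3 groups exceeded Dixon's 95% critical value for 4 samples. Chance alone gives about 1 in 20. All 3 concerned control replicate 1. For Stbd1 it was the lowest control, at 58.6 scaled reads against 90.4 to 95.4 in the other controls (0.865 of the range). For Gys2 it was the highest control, at 814 against 236 to 324 (0.849). For Gbe1 it was also the highest control, at 2872 against 1525 to 1723 (0.853). Without control replicate 1 the log2 fold change was 1.95 for Stbd1 (limma adjusted p = 0.000387), 1.38 for Gys2 (0.140) and -0.14 for Gbe1 (0.844).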

How the results depend on the processing

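No paired analysis was possible because the sample titles give no number shared between the genotypes. Over 17 genes and 24 alternatives, 382 of 408 values kept their direction and their side of the threshold. The count of all genes past the threshold, 239 as reported, was 776 with DESeq2, 139 with the B cell score as a covariate, 98 without control replicates 1 and 2 together and 17 with Lsd1 KO replicate 3 alone against the controls, and it ran from 71 (without Lsd1 KO replicate 4) to 429 (without Lsd1 KO replicate 3) when 1 library was left out. The number of members called, 1 as reported, was 0 with Lsd1 KO replicate 3 alone, and 1 to 2 when 1 library was left out. The number of other pathway genes called, 0 as reported, was 2 with DESeq2 and 0 to 4 when 1 library was left out. Some of these fits hold fewer libraries, and the cause of the changed counts was not tested. The sign turned for 8 of the 17 genes. With Lsd1 KO replicate 3 alone the log2 fold change was 0.17 for Gbe1, 0.38 for Pygl, -0.87 for Pygm, -0.26 for Phka1 and -0.84 for Ppp1r3a. With the muscle covariate it was 0.27 for Pygl, -0.22 for Pygm and -0.36 for Ppp1r3a, and with the mammary covariate 0.073 for Pygl and -0.044 for Pygb. Without control replicates 1 and 2 together it was 0.079 for Pygl and -0.026 for Pygb. With 1 library left out it ran from -0.21 to 0.10 for Pygl, -0.025 to 0.089 for Pygb, -0.021 to 0.38 for Ppp1r3c and -0.45 to 0.043 for Epm2a. Stbd1 was past the threshold in 23 of 24 alternatives, the exception being Lsd1 KO replicate 3 alone. Depth limits the genes of low count, Ppp1r3g and G6pc.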
